A study of Mus musculus with 6 samples.

Results

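The IL-1 family was examined in microglia that had been co-cultured with neutrophils lacking or carrying CD177. Its members here were 10 transcripts, taken by name from the 55335 gene identifiers in the table: the ligands Il1a, Il1b, Il18 and Il33, the receptor antagonist Il1rn, the decoys Il1r2 and Il18bp, and the receptor chains Il1r1, Il1rap and Il1rl1. All 10 were found, each under 1 identifier.

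Primary microglia, WT in every library, had been grown from minced C57BL/6 neonatal brain and detached by shaking at day 14. They shared a dish with neutrophils for 24 h. The neutrophils had been isolated by magnetic sorting from lesion cores of adult male C57BL/6 mice 3 days after a T10 contusion, either Cd177 WT or Cd177 KO (a commercial Cd177-/- line). Microglia were then sorted as Ly6G-, and 3 RNA-seq libraries were made per neutrophil genotype. There was no library of microglia without neutrophils. Separate cultures or animals are not stated for the 3 libraries of a genotype, so p-values measure only the spread between these libraries.

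IL-1α and IL-1β both signal through the receptor IL-1R1, which recruits the accessory chain IL-1RAP and starts a MyD88 and IRAK relay to NF-κB. The antagonist encoded by Il1rn binds the same receptor without signalling, and the decoy receptor IL-1R2 captures the ligands. IL-1β and IL-18 are cut to their active forms by caspase-1 in inflammasomes, whereas full-length IL-1α is already active. IL-18 is neutralised by IL-18BP. IL-33 signals through ST2, the product of Il1rl1, also together with IL-1RAP. In the injured cord microglia and infiltrating myeloid cells are known early sources of IL-1, while IL-33 comes mainly from astrocytes and oligodendrocytes.

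The 3 members Il1a, Il1b and Il1rn fell steeply together, and their promoters, with that of Il18, which did not pass the test, are shown to set side by side what the transcripts share in sequence. Each line gives the 250 bases before a RefSeq start (GRCm38.p6), on the gene's strand. Capitals mark matches to the TATA box (TATAAA, gene strand), AP-1 (TGANTCA), C/EBP (TTGCNNAA), PU.1 (GAGGAAG) or the NF-κB consensus, the last 4 on both strands. RefSeq lists 3 starts for Il1rn, of which the first and the second are shown.
Il1a, chr2:129309973-129310222, minus strand: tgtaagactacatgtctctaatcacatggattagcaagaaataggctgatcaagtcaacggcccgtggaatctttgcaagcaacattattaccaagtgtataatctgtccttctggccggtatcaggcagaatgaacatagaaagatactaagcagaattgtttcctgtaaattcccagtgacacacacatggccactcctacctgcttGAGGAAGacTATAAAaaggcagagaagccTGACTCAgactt
Il1b, chr2:129371140-129371389, minus strand: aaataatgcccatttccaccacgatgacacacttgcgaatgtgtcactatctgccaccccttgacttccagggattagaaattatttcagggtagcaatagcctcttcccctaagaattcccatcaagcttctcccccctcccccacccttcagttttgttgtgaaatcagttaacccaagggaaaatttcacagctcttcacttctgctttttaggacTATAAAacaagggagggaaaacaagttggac
Il1rn start 1, chr2:24336610-24336859, plus strand: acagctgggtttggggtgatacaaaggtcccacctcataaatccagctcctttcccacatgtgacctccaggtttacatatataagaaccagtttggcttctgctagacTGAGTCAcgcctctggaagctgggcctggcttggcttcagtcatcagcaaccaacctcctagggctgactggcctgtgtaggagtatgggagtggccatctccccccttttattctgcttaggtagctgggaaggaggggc
Il1rn start 2, chr2:24345041-24345290, plus strand: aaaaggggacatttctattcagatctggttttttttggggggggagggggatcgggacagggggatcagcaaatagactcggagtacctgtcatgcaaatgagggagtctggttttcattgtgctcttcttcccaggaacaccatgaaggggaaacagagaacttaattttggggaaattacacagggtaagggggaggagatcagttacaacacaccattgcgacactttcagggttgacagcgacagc
Il18, chr9:50554450-50554699, plus strand: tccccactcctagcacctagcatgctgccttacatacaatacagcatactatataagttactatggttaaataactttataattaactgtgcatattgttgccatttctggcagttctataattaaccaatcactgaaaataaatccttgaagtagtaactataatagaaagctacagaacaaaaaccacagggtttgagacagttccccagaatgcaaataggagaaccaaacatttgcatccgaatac

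Il1a and Il1b each held a TATA box, beginning 32 and 31 bases before the start. Of 32851 RefSeq promoters of this length, 7.59% held that motif. The Il1a window also held a PU.1 match at 41 bases and an AP-1 match at 12 bases before the start, and the first Il1rn window held an AP-1 match at 141 bases. AP-1 matches were in 6.75% of all promoters, PU.1 matches in 10.6%, C/EBP matches in 9.56% and NF-κB matches in 7.25%. None of the 5 motifs was found in the second Il1rn window or in that of Il18, and no matches overlapped. No Il1rn window held a TATA box. Among members whose windows are not shown, Il33 had a TATA box at 203 bases before its first start and at 29 before its second. C/EBP matches lay in windows of Il33, Il1r1, Il18bp and Il1rl1, and an NF-κB match in the second window of Il1r1. None of these members was called. A match is a string of letters and does not show binding.

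Libraries of an arm were alike, with Pearson's r across genes of 0.988 to 0.989 within arms and 0.957 to 0.959 between arms. The steps between low values gave an approximate depth of 15600000 to 19200000 fragments per library. Mitochondrial transcripts held 11.1% to 11.3% of summed FPKM with WT neutrophils, against 14.3% to 14.6% with KO neutrophils, and their part in the results was not tested beyond rescaling without them, under which Il1a, Il1b and Il1rn still fell. Of 11395 genes tested, 43.3% differed between the arms at an adjusted p under 0.05 (limma), 18.8% lower and 24.5% higher with KO neutrophils. Lower genes were 43.4% of these calls on the deposited scale and 54.9% after rescaling to a common sum of all genes. They were 42.8% after rescaling to a common sum outside the mitochondrial chromosome. Of 13 markers shared by macrophages and microglia 12 were tested, of which 3 were lower and 5 higher with KO neutrophils, while their sum was 2817 to 2916 FPKM with WT and 2812 to 2862 FPKM with KO neutrophils. Cd14, a coreceptor for lipopolysaccharide, averaged 474 and 136 FPKM by arm and Adgre1, which encodes F4/80, 101 and 39.3 FPKM, whereas Cd68 averaged 372 and 491 FPKM, Lgals3 269.6 and 444 FPKM and Laptm5 45.4 and 83.0 FPKM. The part of these changes in the fall of Il1a, Il1b and Il1rn was not tested. Defining markers of brain microglia were scarce, since 14 of 20 on the list stayed under 1 FPKM in every library, P2ry12 reached at most 0.148 FPKM, and C1qa, Sall1, Fcrls and Sparc were listed at 0. The 20 microglia markers summed to 318 to 338 FPKM in the WT and to 398 to 432 FPKM in the KO libraries. The cells are called microglia here after their label, which these markers do not support.

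Of the 10 members 5 had a mean of at least 1 FPKM and were tested: Il1a, Il1b, Il1rn, Il18 and Il1rl1. With KO neutrophils 3 fell (Il1a, Il1b and Il1rn), 0 rose, and Il18 and Il1rl1 did not pass the test. Among all tested genes 18.8% fell, and 0.448% fell at least 4-fold on the fitted scale (log2 change of -2 or less), as these 3 did. The same 3 were the tested members whose arms did not overlap, against 55.8% of tested genes in either direction. The study plotted cytokine transcripts that differed between the same libraries and measured Il1b by qPCR, so this count is not independent evidence of direction. The median log2 change was -2.40 over the 5 tested members and 0.024 over all tested genes. Il1b entered the test only through its WT level, so its call and this median are partly set by the filter on low values; of the other 4 tested members 2 were lower, with a median of -1.38. In bulk RNA, fewer cells of a type and less RNA per cell cannot be told apart.

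Il1a, the ligand released by damaged and activated cells, was the most abundant member in the WT arm. It lies on chromosome 2 (chr2:129299610-129309972, minus strand, GRCm38). It had 57.1, 54.9 and 59.4 FPKM with WT neutrophils and 2.59, 2.33 and 2.42 FPKM with KO neutrophils. Every KO library lay far below every WT library. The means were 57.1 ± 2.27 and 2.45 ± 0.133 FPKM (SD, n = 3 each), a 23.3-fold difference, and the change on the log2(FPKM + 1) scale was -4.08 (SE 0.046, limma adjusted p = 4.98e-08). Among the 11395 tested genes it ranked 10 by size of fall. Its exons overlap those of Gm14023 on the opposite strand in the annotation, which had 0.0462 to 0.199 FPKM, and the strand setting of the counting is not given in the sources used here.

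Il1b (chr2:129364570-129371139, minus strand), the inflammasome-dependent ligand, was far less abundant than Il1a. It had 4.90, 4.45 and 4.82 FPKM with WT neutrophils, and 0.0845, 0.0551 and 0.116 FPKM with KO neutrophils. The arms did not overlap, and the KO values were close to the detection floor of 3 fragments, which was 0.139, 0.118 and 0.115 FPKM in the same libraries (counting error only). Those values amount to about 1.8, 1.4 and 3.0 fragments. The WT mean of 4.72 ± 0.238 FPKM (SD, n = 3) stood 55.5-fold above the KO mean of 0.0851 ± 0.0302 FPKM, and, with the estimated 310 and 6 fragments of the arms treated as counts, an approximate 95% binomial (Clopper-Pearson) interval ran from 26.1-fold to 158-fold. This interval covers counting error only, pools the libraries of an arm and leaves out the spread between them. The fitted log2 change was -2.40 (SE 0.065, limma adjusted p = 1.76e-06) and understates the fall of so low a transcript, since it was -4.71 with a pseudocount of 0.1 in place of 1. The antisense transcript Il1bos, which overlaps Il1b, had 0.0328 to 0.145 FPKM.

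Il1rn (chr2:24336853-24351494, plus strand), the antagonist, fell as well. It had 31.6, 31.6 and 32.2 FPKM with WT neutrophils and 4.52, 4.37 and 3.80 FPKM with KO neutrophils. The arms were again fully apart. The means of 31.8 ± 0.336 and 4.23 ± 0.380 FPKM (SD, n = 3 each) differed 7.52-fold, or by -2.65 on the log2(FPKM + 1) scale (SE 0.057, adjusted p = 7.02e-07 by limma). The gene yields a secreted and intracellular forms from different starts, which a gene-level value does not separate.

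**Figure D1:**
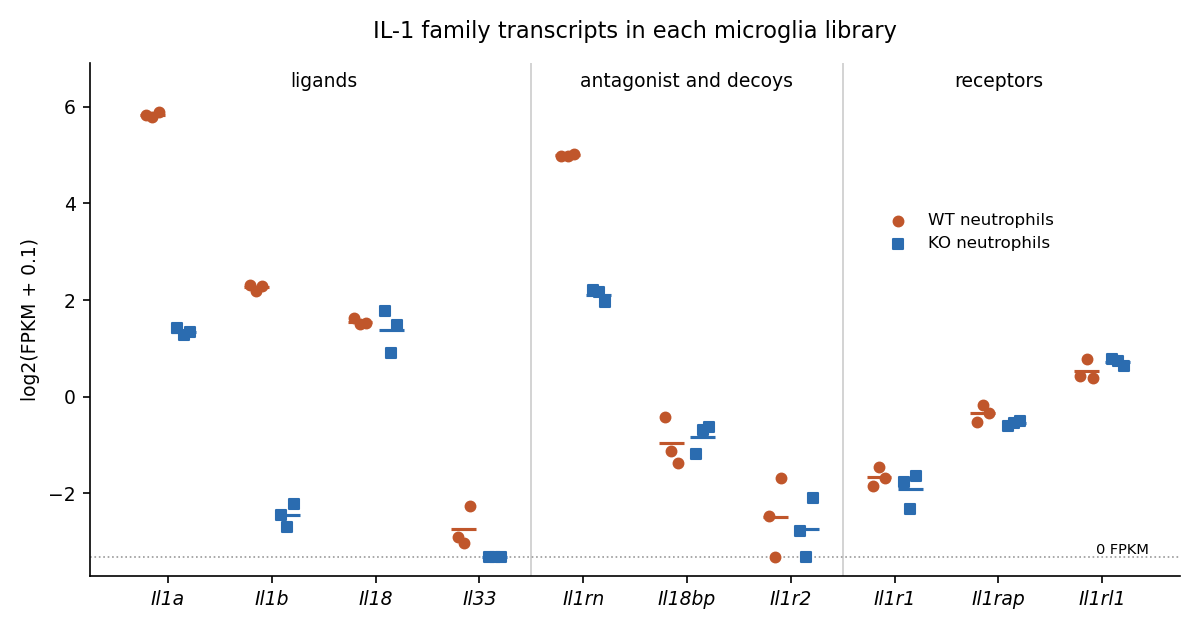
FPKM of the 10 members in each library, plotted as log2(FPKM + 0.1) on the vertical axis, with WT neutrophil co-cultures as circles, KO as squares, and a short line at the mean of each 3 log2 values. Il1a, Il1b and Il1rn form separate clusters by neutrophil genotype, whereas the points of Il18, Il18bp, Il1r2, Il1r1, Il1rap and Il1rl1 overlap, and those of Il33 lie near or on the dotted line at 0 FPKM.

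Il18 (chr9:50554827-50581840), the other caspase-1 substrate, was low and did not pass the test. It had 2.99, 2.72 and 2.77 FPKM with WT neutrophils and 3.33, 1.77 and 2.69 FPKM with KO neutrophils. The highest and the lowest value were both in the KO arm. The log2 change was -0.11 (SE 0.159, limma adjusted p = 0.602), and without KO replicate 2 it was 0.064. Its binding protein Il18bp was under 1 FPKM, with 0.647, 0.363 and 0.289 FPKM and 0.343, 0.525 and 0.551 FPKM, and the arms overlapped. Only 3 of these 6 values exceeded the floor for the shortest coding transcript, and the exons of Il18bp overlap those of Numa1 on the opposite strand, which had 13.1 to 18.3 FPKM, so the level of Il18bp is uncertain.

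Il33 (chr19:29925114-29960718), an alarmin of glia and stromal cells, was barely detected. Its WT libraries held 0.0340, 0.0223 and 0.109 FPKM, and each KO library listed it at 0. All WT values lay under the floor of 3 fragments for its shortest coding transcript, at most 0.521 FPKM, so no fold is given. Genes with a mean above 0 and under 1 FPKM were without overlap in this direction in 7.36% of cases. Of the astrocyte markers 11 of 12 stayed under 1 FPKM in every library, with Gfap at most 0.0305 FPKM and Aqp4 and Gja1 listed at 0, and the exception was Aldoc, a glycolytic enzyme, at 12.3 to 13.1 FPKM in WT and 15.6 to 17.1 FPKM in KO libraries. Of the oligodendrocyte markers 11 of 12 stayed under 1 FPKM, with Mag and Olig2 listed at 0, and the exception was Cnp at 2.60 to 2.94 and 3.76 to 4.31 FPKM. Aldoc and Cnp were both called higher with KO neutrophils (limma adjusted p = 0.0028 and 0.0052), and their part in the values of Il33 was not tested.

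The receptor chains were low in both arms, and none differed beyond the spread between libraries. Il1rl1, which encodes ST2, was the highest of them, at 1.24, 1.62 and 1.21 FPKM in the WT libraries, against 1.63, 1.56 and 1.47 FPKM for the KO arm. On the log2 scale it stood 0.12 higher (SE 0.087), with a limma adjusted p of 0.312. Il1rap, the shared accessory chain, had 0.600, 0.795 and 0.696 FPKM and 0.554, 0.585 and 0.610 FPKM, and the lowest WT value lay within the KO range. The signalling receptor Il1r1 had 0.179, 0.265 and 0.211 FPKM and 0.197, 0.101 and 0.223 FPKM, above the floor in all 6 libraries. The decoy Il1r2 had 0.0809, 0 and 0.211 FPKM and 0.0460, 0 and 0.133 FPKM, under the floor in all 6. For these members the exact two-sided permutation p was 0.3 (Il1rl1), 0.2 (Il1rap), 0.5 (Il1r1) and 0.7 (Il1r2), in a design whose smallest possible p is 0.1. When genes of any level above 0 were tested, Il1rap, Il1r1, Il1r2, Il18bp and Il33 had limma adjusted p-values of 0.404, 0.555, 0.752, 0.829 and 0.209, while 17.9% of the 25195 genes in that fit passed (lower genes were 8.13% of the 25195).

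Il1b and Il1r2 are known to be abundant in neutrophils. The defining neutrophil transcripts Ly6g, S100a9, Retnlg, Mpo and Elane were listed at 0 in all 6 libraries, and S100a8 reached at most 0.456 FPKM in a WT library and 0.181 FPKM in a KO library. The 20 neutrophil markers summed to 10.01 to 10.7 FPKM per WT library and to 2.26 to 2.80 FPKM per KO library, of which Mmp9, also a macrophage transcript and on the list of IL-1 targets, made up 7.08 to 7.21 and 0.770 to 1.13 FPKM. Without Mmp9 the sum was 2.80 to 3.59 FPKM with WT and 1.49 to 1.68 FPKM with KO neutrophils. Csf3r, the G-CSF receptor, was above its floor in all 6 libraries and averaged 0.621 and 0.302 FPKM by arm, Cd177 averaged 0.247 and 0.0719 FPKM, and Camp averaged 0.285 and 0.0902 FPKM, each lower in every KO library than in any WT library. Of the 12 neutrophil markers above 0 in some library, 5 were apart in this way (these 3, S100a8 and Mmp9), 0 were apart in the other direction and 7 overlapped. Among the 11 of them with a mean under 1 FPKM 4 were apart, beside 7.36% of all such genes. Cd177 is among these 4 and is the gene knocked out in the KO neutrophils, so its count here does not bear on the amount of neutrophil RNA. Of the 6 libraries Cd177 exceeded its floor in 5, S100a8 in 2 and Camp in 1. Trem1 averaged 0.897 and 0.463 FPKM, and its arms overlapped. The part of neutrophil RNA in the fall of Il1b was not tested. The 10 fibroblast markers summed to at most 0.0324 FPKM.

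The order of levels, which FPKM allows because it is per length, changed between the arms. With WT neutrophils it was Il1a, Il1rn, Il1b, Il18, Il1rl1, Il1rap, Il18bp, Il1r1, Il1r2 and Il33, and each of the first 5 lay above the next in every library. With KO neutrophils Il1rn came first and Il18 second, with Il1a next and not separated from Il18. Il1b moved down to a place between Il1r1 and Il1r2 and overlapping both. Il1a, Il1b and Il1rn together made up 94.0% to 94.6% of the summed FPKM of the 10 members with WT neutrophils, but 52.7% to 59.8% with KO neutrophils.

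The antagonist stood in a different proportion to its ligands. Il1rn over Il1a was 0.555, 0.577 and 0.543 in the WT libraries and 1.72, 1.84 and 1.55 in the KO libraries (pseudocount 0.1). All WT ratios were under 1 and all KO ratios above it. The difference of the log2 ratio was 1.61, or 3.04-fold, and it was 1.42 with a pseudocount of 1 and 1.63 with 0.01 (exact two-sided permutation p = 0.1, the smallest possible, and 0.3 adjusted over 6 pairs of members). Il1rn over Il1b was 6.35, 6.97 and 6.57 in the WT libraries and 25.0, 28.8 and 18.1 in the KO libraries, where Il1b rested on few fragments (log2 difference 1.83, exact permutation p = 0.1 and 0.3 adjusted). The size and the sign of this difference depended on the pseudocount, since 0.1 exceeds the Il1b value of 2 KO libraries and 1 exceeds all 3. It was 2.78 with 0.01 and -0.25 with 1. Without a pseudocount the ratio was 6.46, 7.10 and 6.69 in the WT libraries and 53.5, 79.3 and 32.9 in the KO libraries, or 32.5, 37.1 and 32.9 in the latter with Il1b raised to its floor where it lay under it. Set against the sum of Il1a and Il1b, Il1rn was 0.501 to 0.533 of the agonist level with WT and 1.5 to 1.83 times that level with KO neutrophils, given without a test. The arms overlapped for Il18bp over Il18, Il1r2 over Il1r1 and Il1rap over Il1r1 (exact permutation p = 0.7, 1.0 and 1.0). For Il1a over Il1b the outcome depended on the pseudocount. With 0.1 the arms overlapped (log2 difference 0.22, exact permutation p = 0.3), whereas they were apart in opposite directions with 0.01 (1.15) and with 1 (-1.68), each with an exact permutation p of 0.1. Without a pseudocount the ratio was 11.7, 12.3 and 12.3 in the WT libraries and 30.7, 42.3 and 20.9 in the KO libraries, so no direction is given.

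**Figure D2:**
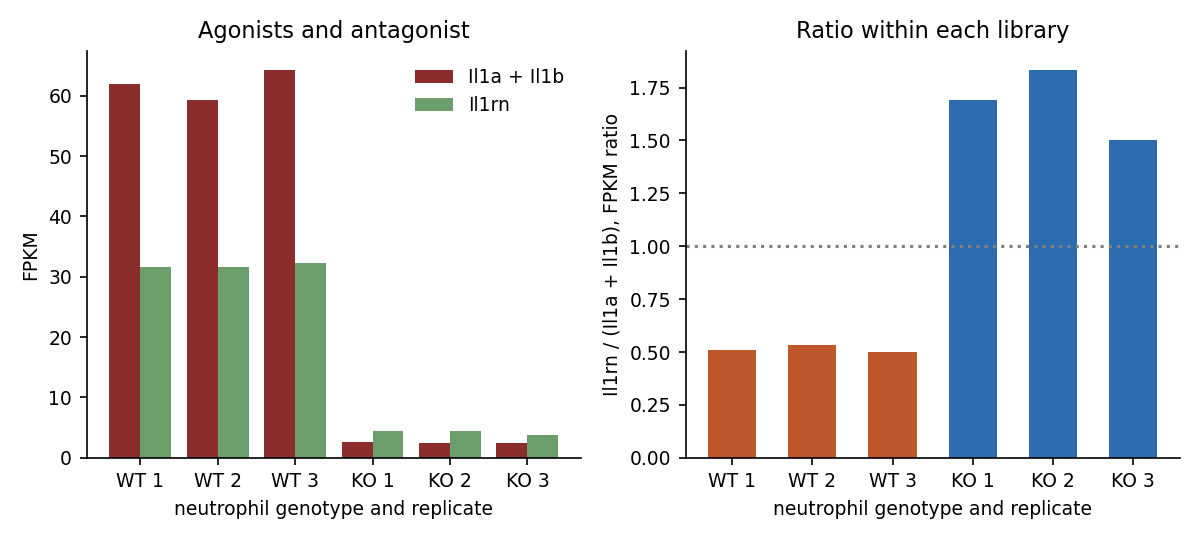
Left, FPKM of Il1a plus Il1b and of Il1rn as bars for each library. Right, Il1rn divided by the sum of both agonists in each library, with a dotted line at 1, where the WT libraries lie between 0.501 and 0.533 and the KO libraries between 1.5 and 1.83.

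**Figure D3:**
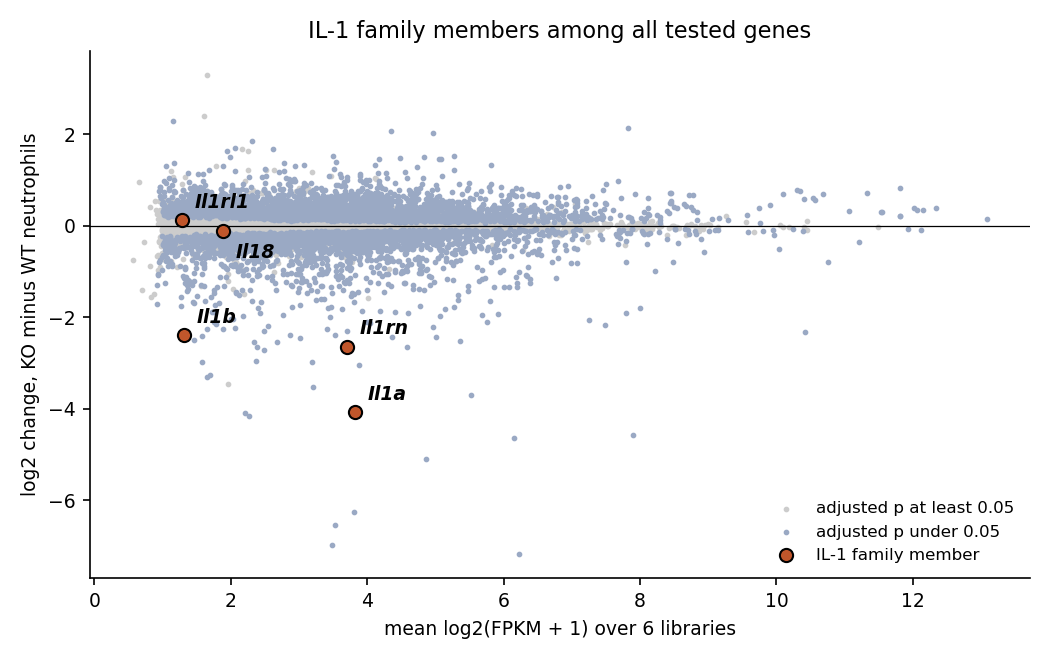
Log2 change (KO minus WT neutrophils) against mean log2(FPKM + 1) for the 11395 tested genes, one point per gene. Il1a, Il1rn and Il1b lie at -4.08, -2.65 and -2.40 below the bulk of the genes, and Il18 and Il1rl1 lie within it.

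By rule, the 3 transcripts whose pattern over the 6 libraries was nearest to that of Il1a were sought (Euclidean distance of centred log2(FPKM + 1) values). These were Il6, Nos2 and Tnf, at distances of 0.201, 0.206 and 0.512. Tnf, another NF-κB-dependent cytokine, had mean levels of 165 and 11.8 FPKM. Il6 and Nos2 had means of 18.0 and 19.3 FPKM in the WT arm but 0.114 and 0.137 FPKM in the KO arm, far under the pseudocount of 1 on which the distance rests. With a pseudocount of 0.1 their log2 changes were -6.46 and -6.36 beside -4.49 for Il1a, so their nearness holds for the scale used and not for the fold. No member was called higher, so no such list was made for a rise.

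The 11 other family members were then examined, of which Sigirr alone was tested. Sigirr, an inhibitory receptor of the family, had 0.862, 1.28 and 1.26 FPKM and 1.36, 1.06 and 1.33 FPKM, and its arms overlapped (limma adjusted p = 0.588, log2 change 0.079). Listed at 0 in every library were 6 of the 11, among them Il18r1, the ligand-binding chain of the IL-18 receptor, whereas its partner Il18rap had 0.868 to 1.15 FPKM and 0.818 to 0.962 FPKM by arm, with overlap. A pair of IL-36 agonists was detected in the WT arm alone. Il1f6, which encodes IL-36α, had 1.32, 0.871 and 1.03 FPKM with WT neutrophils, and Il1f9, which encodes IL-36γ, had 0.752, 0.763 and 0.721 FPKM. Both were listed at 0 in all 3 KO libraries. Their WT values lay above the floor of 3 fragments, at most 0.218 FPKM for Il1f6 and 0.117 FPKM for Il1f9. Among genes with a mean above 0 and under 1 FPKM, 7.36% were lower in every KO library than in any WT library. Their receptor Il1rl2 had at most 0.0736 FPKM. These IL-36 transcripts were singled out after their values were seen, so their values are a description with no test.

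The family lies largely in 2 gene clusters and in the separate pair of Il1a and Il1b. On chromosome 2 (GRCm38, GENCODE M21), Il1f8, Il1f9, Il1f6, Il1f5, Il1f10 and Il1rn follow each other between 24153161 and 24351494 on the plus strand. In this stretch the detected transcripts Il1f9, Il1f6 and Il1rn were each lower in every KO library than in any WT library, and Il1f8, Il1f5 and Il1f10 were listed at 0. Il1a (129299610 to 129309972) and Il1b (129364570 to 129371139) are neighbours on the minus strand of the same chromosome, 54.6 kb apart. This pair lies 104948.1 kb beyond Il1rn. The receptor cluster on chromosome 1 holds Il1r2, Il1r1, Il1rl2, Il1rl1, Il18r1 and Il18rap between 40074079 and 40551705. Its highest transcripts were Il1rl1 and Il18rap, and the groups of both overlapped. Among all tested genes 24.6% were lower in every KO library than in any WT library, a share that bears on Il1rn, since Il1f9 and Il1f6 had too low a mean to be tested.

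Of 19 listed genes that process or release the ligands 13 were tested, of which 2 fell and 1 rose, with a median log2 change of 0.019. The 2 that fell are 15.4% of those tested, near the 18.8% of all tested genes, and 24.5% of all tested genes rose. Casp4, the sensor of the non-canonical inflammasome, fell from 5.97, 6.15 and 6.79 FPKM to 1.71, 1.88 and 1.62 FPKM (log2 change -1.41, limma adjusted p = 1.59e-05). Nlrp3, an inflammasome sensor, fell from 15.9, 17.3 and 18.8 FPKM to 7.14, 7.92 and 7.08 FPKM (log2 change -1.13, limma adjusted p = 5.58e-05). Capn2, a calpain subunit able to cut pro-IL-1α, rose from 6.59, 6.75 and 6.23 FPKM to 8.55, 8.83 and 9.24 FPKM. Casp1 itself averaged 11.5 FPKM with WT neutrophils and 11.2 with KO (limma adjusted p = 0.772), and Gsdmd, which forms the release pore, had 17.5 and 18.1 FPKM (adjusted p = 0.242). Aim2, a DNA sensor, was at 0.22 on the log2 scale with an adjusted p of 0.0649. The adaptor Pycard reached at most 0.0943 FPKM. Casp1, Gsdmd and Pycard were named after their values were seen.

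Of 29 listed genes of the relay from the receptor to NF-κB 27 were tested, 16 fell and 3 rose, with a median log2 change of -0.23. The 16 are 59.3% of those tested, beside 18.8% lower and 24.5% higher among all tested genes. Their log2 changes ran from -3.04 for Nfkbiz to -0.13 for Rela. Those of Tollip, Peli1, Tab3, Ikbkb and Chuk, also called lower, lay between -0.28 and -0.14. The 4 with the smallest p were Nfkbiz, Nfkb2, Nfkbia and Irak3. Nfkbiz, a nuclear cofactor that IL-1 and TLR signals induce, fell from 41.0, 41.3 and 41.4 FPKM to 4.24, 4.37 and 3.77 FPKM (log2 change -3.04, limma adjusted p = 2.47e-07). Nfkbia, the IκBα inhibitor, fell from 74.6, 76.0 and 71.4 FPKM to 14.0, 12.6 and 11.9 FPKM (limma adjusted p = 1.10e-06). Irak3, a kinase-inactive brake on the relay, had 7.14, 7.14 and 7.52 FPKM against 0.870, 1.08 and 1.10 FPKM (limma adjusted p = 3.72e-06). Nfkb2, the p100 precursor, fell by 1.25 on the log2 scale. Of the core chain Myd88, Irak4 and Traf6, named after their values were seen, none passed: the log2 change was 0.064 for Myd88 (limma adjusted p = 0.13), -0.099 for Irak4 (adjusted p = 0.255) and 0.14 for Traf6 (adjusted p = 0.0631). The kinase Irak1, also named afterwards, rose from a mean of 10.2 to 12.5 FPKM, a log2 change of 0.26 (adjusted p = 0.00245).

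Of 24 listed transcripts known to be induced by IL-1, many of them also by TLR ligands and TNF, 16 were tested, 15 fell and 0 rose, with a median log2 change of -3.81, beside 18.8% lower among all tested genes. Of these 15, 8 had a KO mean under 1 FPKM and entered the test only through the WT arm, so the count and the median are partly set by the filter. Of the 8 tested with a KO mean of at least 1 FPKM 7 fell. Icam1, named after its value was seen, did not pass (log2 change -0.15, limma adjusted p = 0.0536). Several of these genes are among those the study had measured or plotted. The 4 with the smallest p were Csf3, Cxcl2, Ptgs2 and Ccl7, which encode G-CSF, a neutrophil chemokine, the inducible cyclooxygenase and a monocyte chemokine. Csf3 had 122 to 127 FPKM in the WT libraries and was at 0 in each KO library, so no fold is given. The log2 changes of Ptgs2 and Ccl7 were -5.09 and -7.18. That of Cxcl2, whose KO mean of 0.596 FPKM lay under the pseudocount, was -6.25 and with a pseudocount of 0.1 it was -7.44.

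**Figure D4:**
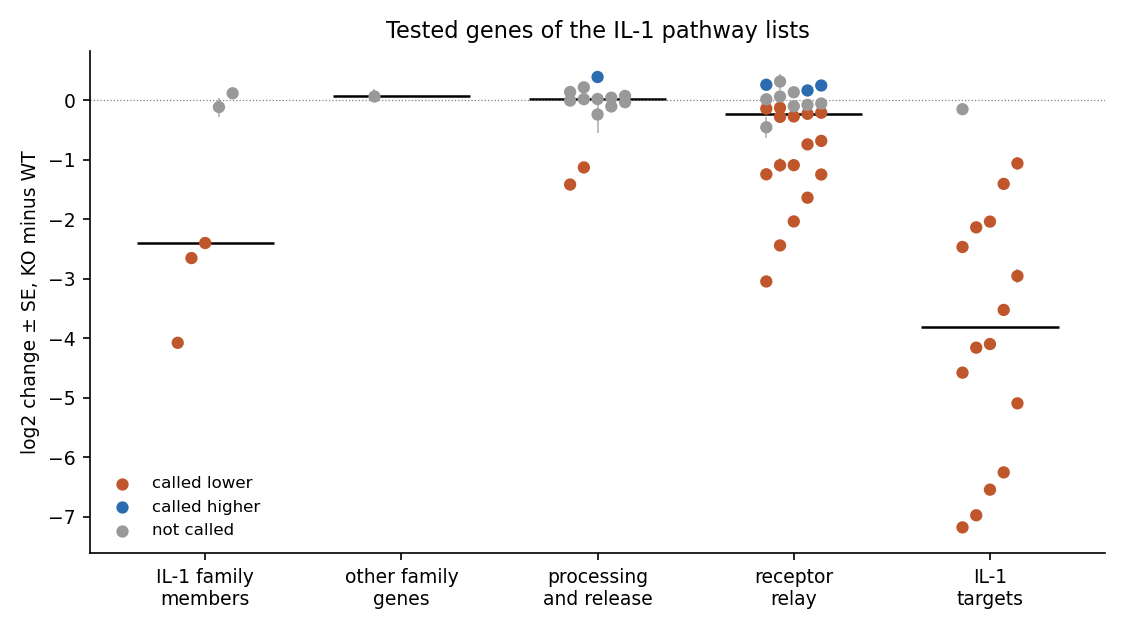
Log2 change with its SE (KO minus WT neutrophils) for each tested gene of the 10 members, the other family genes and the lists of processing, receptor relay and target genes, coloured by call at an adjusted p under 0.05, with a line at each median. The medians are -2.40, 0.079, 0.019, -0.23 and -3.81 in that order.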

How the data were processed

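RNA-seq of microglia was read from 6 libraries, 3 per neutrophil genotype, with groups and replicate numbers from the sample titles. The authors deposited FPKM, in which fragment counts are scaled by transcript length and library size, for 55335 Ensembl mouse genes, with no pooling of replicates. The labels' processing notes name fastp 0.17.1, HISAT2 2.1.0, DESeq2 1.18.1 and R 3.4.3. The quantification program, build, annotation and strand setting are not given in the sources used here, and labels and methods name different library kits and sequencers. Symbols and positions came from GENCODE M21 (GRCm38), which named 55154 of the identifiers (99.67%). For the IL-36 genes older symbols were used.

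Genes averaging 1 FPKM or more (11395) were tested for KO minus WT on log2(FPKM + 1) with limma 3.58.1 (R 4.3.3, lmFit and eBayes with trend, no covariates), with Benjamini-Hochberg adjustment over all of them and calls at an adjusted p under 0.05. This scale understates changes of low genes. The fitting procedure was tested on simulated data. Single values were tested by exact permutation (SciPy 1.17.1). Depth is not given with FPKM. The commonest step between low values was read as 1 fragment, but only 23.5% to 24.4% of low values were whole within 0.05 fragments, against 10% by chance, so reads were not recovered and no count test was run. Floors of 3 fragments used the shortest coding transcript and cover counting error only, and the interval for Il1b treats fragments estimated from FPKM as counts. All 10 members were always named. Of the other lists the 4 tested genes with the smallest p were named, and any tested family gene. Members and lists were chosen with earlier results of these data known. Replicate numbers did not pair the libraries (correlation of deviations -0.0751, -0.0524 and -0.00518).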

Additional observations from a re-analysis of the deposited data

How the results depend on the processing

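Of 296 comparisons with an alternative, 281 left the call and its direction as they were, or kept a count within 1.5 times its value. For the ratios only the sign of the log2 difference could change, since their exact test cannot reach a call in this design. Il1a over Il1b with a pseudocount of 0.01 is thus among the 281, although its arms went from overlapping to apart. The count of other family genes called higher rested on 1 tested gene in the main fit and could hardly move. The number 281 is therefore not a measure of stability. The alternatives were other pseudocounts, filters and scalings, no variance trend, array weights, the replicate block and leaving out each library. Il1a, Il1b and Il1rn fell in every alternative that tested them, with log2 changes of -4.49 to -4.05, -4.71 to -2.33 and -2.88 to -2.59 and limma adjusted p of at most 0.000222; a mean of at least 5 FPKM left out Il1b. With the replicate block the calls of the members did not change (Il1a -4.08, limma adjusted p = 2.25e-05, and 3 members lower) and 14 signalling genes were lower and 2 higher; same-numbered libraries did not deviate together.

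With no filter on low values 2 other family genes were lower (Il1f6 and Il1f9, which entered that fit only through the WT arm), 2 processing genes higher and 1 signalling gene higher; with a mean of at least 5 FPKM 1 processing gene was lower, since fewer genes were tested. Leaving out 1 library gave 2 to 3 processing genes lower, 1 to 2 higher and 1 to 3 signalling genes higher (2 processing genes higher without WT replicate 1 and 1 signalling gene higher without WT replicate 2; the cause was not tested). With a pseudocount of 1 the log2 ratio difference was -0.25 for Il1rn over Il1b (2.78 with 0.01), -1.68 for Il1a over Il1b (arms apart, as they were in the other direction with 0.01, at 1.15) and -0.044 for Il1rap over Il1r1; with 0.01 it was -0.069 for Il1r2 over Il1r1. Leaving out 1 library gave -0.26 to 0.064 for Il18 (0.064 without KO replicate 2), -0.013 to 0.67 for Il18bp over Il18, -0.52 to 0.41 for Il1r2 over Il1r1 and -0.19 to 0.13 for Il1rap over Il1r1. The exact test of a ratio cannot go below 0.1 here, or 0.2 with a library left out, so its p says nothing about stability. Depth limits Il1b in the KO arm and Il33, Il1r2 and Il18bp in both.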
